A study of Mus musculus with 35 samples.

Results

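A set of 9 macrophage genes, some known from macrophages settled in a tissue, some from macrophages that arrive in it and some from both, was followed through radiation injury of mouse skin. The members were the rows of the deposited table with the listed symbols, and all 9 symbols had a row among the 36106 genes of the table. The resident-type genes were Mrc1, Cd163, Vsig4 and Folr2. The recruited or lipid-associated genes were Trem2, Gpnmb and Ccr2. Adgre1 and Cd68, which most macrophages carry, were the shared genes.

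The 35 libraries were bulk RNA-seq of skin from 19 female C57BL/6J mice, which entered the study at 10 weeks of age. Of these mice, 3 were sham animals without radiation and gave 1 library each. In the others the left flank was exposed to 25 Gy, given within 420 s at 3.6 Gy/min, and then shaved, and skin was taken 1, 2, 3 or 4 weeks later. Each week had 4 libraries of radiated skin and 4 of skin labelled control. With 19 mice behind 35 libraries and the same number in the library codes of a radiated and a control skin, same-numbered skins of a week were read as the 2 skins of 1 mouse, although no label says so outright. On this reading the control skin came from mice that had also been radiated. Where it was taken is not clear: the protocol text, which is the same for every library, names the exposed site as the source of all biopsies, and no other place is given for control skin. All mice were of 1 strain and 1 sex, and every library mixes all cell types of the biopsy, so that fewer cells of a type and less RNA per cell cannot be told apart.

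Tissue macrophages are seeded before birth or from blood monocytes, and in the dermis many carry scavenging receptors. Mrc1 encodes the mannose receptor CD206, Cd163 the haemoglobin-haptoglobin scavenger receptor, Vsig4 a complement receptor of the immunoglobulin family, and Folr2 a folate receptor. Monocytes leave the bone marrow and enter injured tissue through the chemokine receptor CCR2. Trem2, a lipid-sensing receptor that signals through the adaptor encoded by Tyrobp, and Gpnmb, a lysosomal glycoprotein, mark lipid-associated macrophages, and Gpnmb is also made by melanocytes. Adgre1 encodes F4/80 and Cd68 a lysosomal glycoprotein related to the lysosome-associated membrane proteins.

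All 9 genes are annotated as protein-coding in GENCODE M21 on GRCm38, the assembly that mm10 names. Mrc1 lies on chromosome 2 (14229392 to 14332057, plus strand), Cd163 on chromosome 6 (124304656 to 124330527, plus), Vsig4 on chromosome X (96247203 to 96293438, minus) and Folr2 on chromosome 7 (101839988 to 101857194, minus). Trem2 lies on chromosome 17 (48346401 to 48354147, plus), Gpnmb on chromosome 6 (49036546 to 49070929, plus) and Ccr2 on chromosome 9 (124101950 to 124113557, plus). Adgre1 is on chromosome 17 (57358691 to 57483527, plus) and Cd68 on chromosome 11 (69664213 to 69666153, minus). No pair of these genes overlaps.

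The proximal promoters of 5 members are printed because these genes stand for all 3 classes and passed the test in radiated skin of week 4. RefSeq windows on GRCm38.p6 of 300 bases, from 250 bases before to 50 after the start site, were found for 8 of the 9 members, with 9 windows in all; Adgre1 had no match. Capitals mark matches on either strand to GAGGAA (the letters of a PU.1 or ETS-type site), TGANTCA (the letters of an AP-1 site), and CATGTG or CACGTG (the letters of an E-box that MITF and TFE factors read). The windows are chr2:14229164-14229463 (plus) for Mrc1, chrX:96293389-96293688 (minus) for Vsig4, chr17:48346151-48346450 (plus) for Trem2, chr6:49036268-49036567 (plus) for Gpnmb and chr11:69666121-69666420 (minus) for Cd68, each read 5′ to 3′ along its gene.
Mrc1: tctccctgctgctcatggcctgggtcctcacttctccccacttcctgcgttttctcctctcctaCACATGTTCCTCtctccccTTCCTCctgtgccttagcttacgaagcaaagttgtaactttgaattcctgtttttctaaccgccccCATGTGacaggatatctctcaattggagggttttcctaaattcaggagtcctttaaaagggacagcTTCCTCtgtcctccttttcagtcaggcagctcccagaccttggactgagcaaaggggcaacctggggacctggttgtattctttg
Vsig4: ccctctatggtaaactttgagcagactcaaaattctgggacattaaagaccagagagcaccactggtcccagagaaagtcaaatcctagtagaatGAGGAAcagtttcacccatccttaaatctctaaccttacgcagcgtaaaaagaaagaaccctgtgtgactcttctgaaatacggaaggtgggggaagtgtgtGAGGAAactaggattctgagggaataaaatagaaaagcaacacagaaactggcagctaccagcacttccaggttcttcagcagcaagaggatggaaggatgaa
Trem2: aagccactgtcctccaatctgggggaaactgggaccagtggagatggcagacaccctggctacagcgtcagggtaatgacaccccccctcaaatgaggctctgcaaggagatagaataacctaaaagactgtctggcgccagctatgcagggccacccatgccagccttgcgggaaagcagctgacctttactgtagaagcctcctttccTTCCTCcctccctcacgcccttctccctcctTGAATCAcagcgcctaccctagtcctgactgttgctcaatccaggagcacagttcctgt
Gpnmb: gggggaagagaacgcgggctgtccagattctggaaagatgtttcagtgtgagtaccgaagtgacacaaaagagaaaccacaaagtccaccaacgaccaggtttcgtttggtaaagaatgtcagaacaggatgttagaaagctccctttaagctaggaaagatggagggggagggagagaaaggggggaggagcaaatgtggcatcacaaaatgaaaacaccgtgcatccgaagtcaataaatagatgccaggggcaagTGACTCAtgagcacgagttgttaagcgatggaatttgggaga
Cd68: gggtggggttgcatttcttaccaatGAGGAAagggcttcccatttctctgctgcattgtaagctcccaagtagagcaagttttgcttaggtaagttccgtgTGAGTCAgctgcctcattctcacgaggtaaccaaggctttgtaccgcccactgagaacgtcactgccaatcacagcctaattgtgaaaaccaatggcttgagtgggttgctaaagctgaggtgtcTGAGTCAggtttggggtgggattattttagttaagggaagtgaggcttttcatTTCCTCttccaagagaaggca
GAGGAA was found in 4 of the 9 member windows (Mrc1, Vsig4, Trem2 and Cd68), and 28.3% of all 32817 promoter windows of that length hold it. TGANTCA was found in 4 windows (Trem2, Gpnmb, Cd68 and 1 of the 2 of Folr2) against 7.81% of all. CATGTG was found in 2 windows (Mrc1 and 1 of Folr2) against 14.2% of all, and CACGTG in 0 against 7.15%. In the Mrc1 window a CATGTG match and a GAGGAA match, both on the opposite strand, touch end to end without overlap; no other matches touched or overlapped. These matches describe letters and show no binding.

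The libraries held 17362853 to 28487885 estimated counts each, and values are given as CPM, counts per 1e+06 counts of a library whose size was scaled by the trimmed mean of M-values (TMM). The summed level of 5 keratinocyte markers was 7103 to 30450 CPM and that of 12 pan-macrophage genes was 232 to 3517 CPM in the 35 libraries, so that both compartments were present in all of them. Other compartments differed between groups: 6 anagen hair follicle markers summed to 20850 ± 16500 CPM (SD, n = 3) in sham skin, and to group means of 21.5 to 2009 CPM in the others. The 6 skeletal muscle markers summed to 28090 ± 6411 CPM in control and 11240 ± 5958 CPM in radiated skin of week 1, and to 9260 ± 6956 and 1450 ± 566 CPM in week 4 (each SD over 4 libraries). The part of these differences in the member results was not tested.

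**Figure D1:**
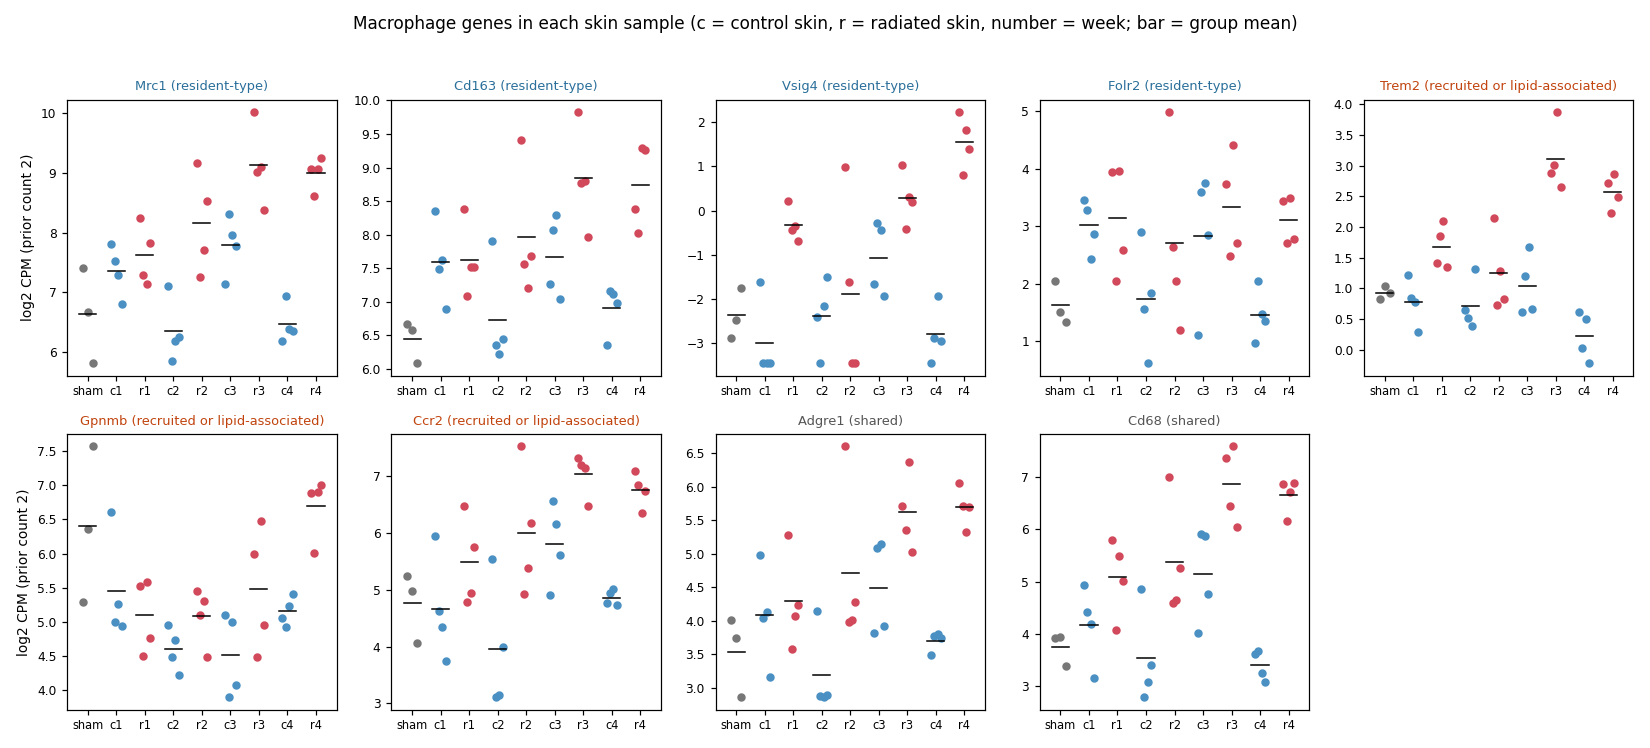
Level of each of the 9 genes in each of the 35 skin libraries, as log2 CPM with a prior count of 2 (y axis), by group (x axis: sham, then control (c) and radiated (r) skin of weeks 1 to 4). Points are libraries and bars are group means. In week 4 the radiated libraries lie above the control libraries for all 9 genes, and 24.2% of all genes passed the test as higher in that week.

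The 2 shared genes were higher in radiated than in control skin by week 4. Cd68 stood at 117, 71.3, 104 and 118 CPM in radiated skin of week 4 (replicates 1 to 4) and at 12.2, 12.7, 9.45 and 8.36 CPM in control skin. No radiated library came near the controls, and Cd68 rose 9.69-fold (log2 fold change 3.28, SE 0.20, adjusted p = 3.4e-06, edgeR). Adgre1 stood at 66.5, 52.4, 39.9 and 51.6 CPM against 11.1, 13.5, 13.9 and 13.2 CPM, again without overlap, and rose 4.08-fold (log2 2.03, SE 0.16, adjusted p = 9.34e-06). In week 3 Cd68 was at 164, 87.3, 191 and 65.8 CPM in radiated and 16.2, 60.2, 58.6 and 27.1 CPM in control skin. It rose 3.20-fold (log2 1.68, SE 0.47, adjusted p = 0.0279), and the lowest radiated library lay just above the highest control. The call was lost without radiated replicate 1 or 3 or control replicate 1 or 4 (adjusted p = 0.0539 to 0.0777). Adgre1 in week 3, at 52.5, 40.7, 82.6 and 32.5 CPM against 14.0, 33.8, 35.3 and 15.1 CPM, had overlapping groups and missed the threshold (log2 1.11, SE 0.39, adjusted p = 0.0587), but passed it with the mouse as a replicate block (adjusted p = 0.0295). Control replicates 2 and 3 of week 3 were the high ones for both genes.

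In weeks 1 and 2 the shared genes missed the threshold in the test of the 2 groups. In week 2 Cd68 was at 127, 24.2, 25.1 and 38.1 CPM in radiated skin and 28.9, 6.84, 8.44 and 10.5 CPM in control skin. Mouse 1 was far above the other 3 in both of its skins. Adgre1 showed the same, with 97.0, 15.7, 16.1 and 19.3 CPM in radiated and 17.5, 7.27, 7.17 and 7.35 CPM in control skin. The test without the block did not call either gene (adjusted p = 0.211 for Cd68 and 0.224 for Adgre1). With the block, which compares the 2 skins of each mouse, Cd68 (log2 1.85, adjusted p = 0.00441) and Adgre1 (log2 1.54, adjusted p = 0.0239) were higher, in 4 of 4 mice each. In 1 fit of all 35 libraries they passed too (adjusted p = 0.0354 and 0.0355). In week 1 neither passed (Cd68 log2 0.93, SE 0.39, adjusted p = 0.327; Adgre1 log2 0.23, SE 0.41, adjusted p = 0.815).

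All 4 resident-type genes rose in radiated skin of week 4. Mrc1 was at 534, 393, 539 and 613 CPM in radiated and 72.8, 122, 83.4 and 81.8 CPM in control skin. The groups lay far apart, and Mrc1 rose 5.82-fold (log2 2.54, SE 0.19, adjusted p = 7.41e-06). Cd163 was at 335, 261, 627 and 615 CPM against 82.1, 143, 138 and 127 CPM, with radiated replicates 3 and 4 about as high as each other and replicates 1 and 2 lower. It rose 3.77-fold (log2 1.91, SE 0.30, adjusted p = 0.000589). Folr2 was at 10.8, 6.48, 11.2 and 6.78 CPM against 1.86, 4.03, 2.69 and 2.46 CPM, and the groups did not overlap. It rose 3.20-fold (log2 1.68, SE 0.28, adjusted p = 0.000849).

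Vsig4 had 18 counts or fewer in every sham and control library. Its estimated counts in week 4 were 108, 43, 82 and 57 in radiated skin, or 4.61, 1.67, 3.43 and 2.54 CPM, and 0, 1, 4 and 1 in control skin. It rose (log2 5.44, SE 0.60, adjusted p = 6.87e-05), and because the control counts are so few, the size is better given by the summed counts, 290 against 6. Per total count these stood in a ratio of 49.4 (95% exact interval 22.4 to 136, counting error only). In week 1 the counts were 25, 12, 16 and 12 in radiated and 5, 0, 0 and 0 in control skin. The groups did not overlap and the ratio of summed counts was 14.3 (5.82 to 45.5), but the gene missed the threshold among all genes (adjusted p = 0.2). In week 2 the radiated skin of mouse 1 alone had more than 5 counts, with 43, 4, 0 and 0 in radiated and 2, 0, 3 and 5 in control skin, and the gene fell below the filter on low counts and was not tested. Week 3 gave 43, 14, 30 and 23 counts against 5, 18, 14 and 3, a ratio of 3.08 (2.13 to 4.54), and an adjusted p of 0.0817. A count of 0 in a library allows up to 3 counts. Vsig4 entered the week 4 test through its radiated libraries, so its call there is a description of a gene present in one group.

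Before week 4, Mrc1 and Cd163 passed the test in week 3 and Folr2 in no week. In week 3 Mrc1 was at 1039, 515, 551 and 332 CPM in radiated and 140.2, 316, 247 and 219 CPM in control skin. It rose 2.70-fold (log2 1.43, SE 0.36, adjusted p = 0.0175), with the lowest radiated library just above the highest control. Cd163 was at 908, 437, 444 and 251 CPM against 153, 269, 315 and 132 CPM, where radiated replicate 4 lay below control replicates 2 and 3. It rose 2.40-fold (log2 1.26, SE 0.41, adjusted p = 0.0472). With the replicate block both missed the threshold (adjusted p = 0.0565 for Mrc1 and 0.0594 for Cd163), although each was higher in 4 of 4 mice. Mrc1 also missed it without control replicate 4 (adjusted p = 0.0504), and Cd163 without any 1 library other than radiated replicate 4 (adjusted p = 0.0501 to 0.118). Mouse 1 of week 3 had the largest difference for both, 2.89 for Mrc1 and 2.56 for Cd163 on the log2 scale, against 0.60 to 1.15 and 0.50 to 0.93 in the other 3. Folr2 in week 3, at 13.2, 5.50, 21.2 and 6.43 CPM against 2.07, 12.0, 13.3 and 7.14 CPM, was higher in 2 of 4 mice (log2 0.45, SE 0.58, adjusted p = 0.589).

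In week 2 Mrc1 was at 573, 152, 209 and 371 CPM in radiated and 138, 57.5, 72.1 and 75.5 CPM in control skin, and the groups did not overlap. The difference missed the threshold without the block (log2 1.93, SE 0.42, adjusted p = 0.135) and passed it with the block (log2 1.82, adjusted p = 0.00566), in the fit of all 35 libraries (0.00662), with DESeq2 (0.000484) and without radiated replicate 2 (0.041). Cd163 was at 684, 189, 148 and 206 CPM against 239, 82.0, 74.8 and 87.3 CPM, and mouse 1 was highest in both skins. It passed with the block (log2 1.24, adjusted p = 0.00592, against 0.307 without) and in no other alternative run, and was higher in 4 of 4 mice. Folr2 spanned 31.6, 6.11, 4.02 and 2.18 CPM in radiated and 7.37, 2.84, 1.44 and 3.49 CPM in control skin, so that radiated replicate 1 alone stood above the controls (log2 1.54, SE 0.79, adjusted p = 0.427). In week 1 no resident-type gene passed: Mrc1 differed by 0.30 (SE 0.27), Cd163 by 0.03 (SE 0.32) and Folr2 by 0.31 (SE 0.42) on the log2 scale, each higher in 2 of 4 mice.

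**Figure D2:**
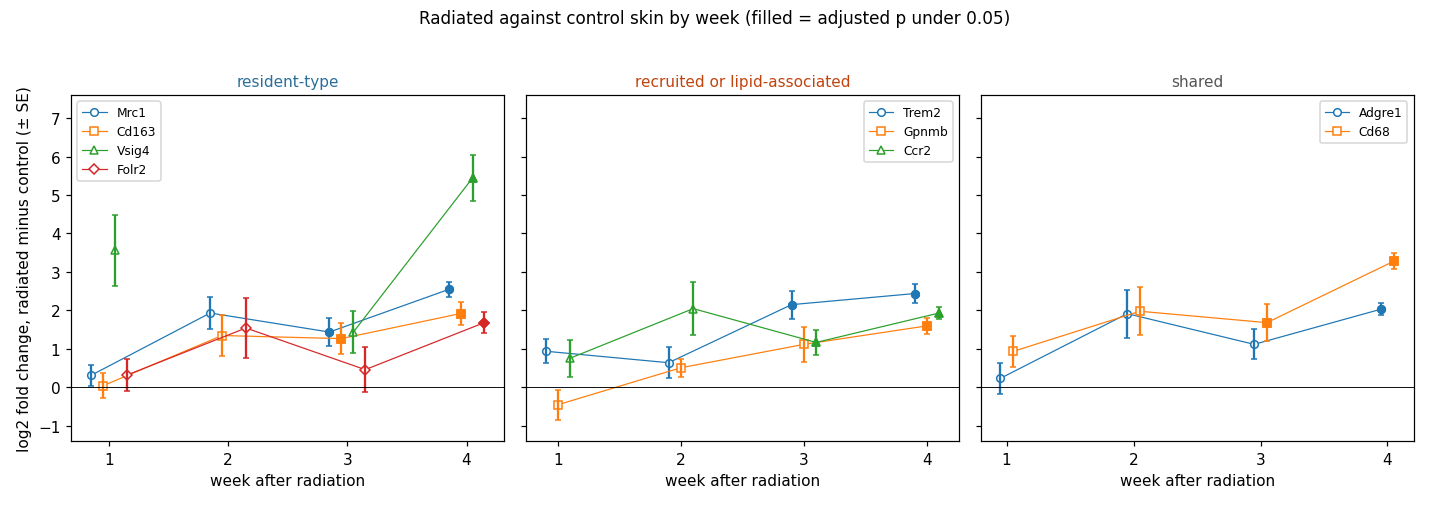
Log2 fold change of radiated against control skin (y axis) in weeks 1 to 4 (x axis), with its standard error, for the resident-type, recruited or lipid-associated and shared genes. Filled symbols have an adjusted p under 0.05; all 9 genes are filled in week 4, and Vsig4 was not tested in week 2.

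The 3 recruited or lipid-associated genes, Trem2, Ccr2 and Gpnmb, all rose in radiated skin of week 4. Trem2 was at 6.49, 4.61, 7.20 and 5.53 CPM in radiated and 1.43, 0.929, 1.32 and 0.770 CPM in control skin of week 4, and rose 5.40-fold (log2 2.43, SE 0.25, adjusted p = 4.73e-05). In week 3 it was at 7.25, 7.98, 14.5 and 6.16 CPM against 1.44, 2.21, 3.11 and 1.48 CPM and rose 4.43-fold (log2 2.15, SE 0.37, adjusted p = 0.00369). The groups did not overlap in either week, radiated replicate 3 of week 3 was the highest of all 35 libraries, and the call of week 3 passed with the block too (adjusted p = 0.00631). The 4 mice of week 3 differed by 1.81 to 2.26 and those of week 4 by 2.11 to 2.71 on the log2 scale, the closest spacing of mice for any member in week 3. In week 2 Trem2, at 4.33, 1.57, 2.35 and 1.69 CPM against 1.47, 1.33, 1.22 and 2.40 CPM, was higher in 3 of 4 mice (log2 0.63, SE 0.40, adjusted p = 0.516). In week 1 it was at 2.56, 3.54, 4.18 and 2.45 CPM against 2.23, 1.71, 1.63 and 1.14 CPM, without overlap, but missed the threshold (log2 0.93, SE 0.32, adjusted p = 0.264).

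Ccr2, the receptor that brings monocytes in, was at 136, 115, 81.6 and 107 CPM in radiated and 27.0, 30.7, 32.2 and 26.5 CPM in control skin of week 4. It rose 3.80-fold (log2 1.93, SE 0.15, adjusted p = 9.55e-06). In week 3 it was at 161, 148, 141 and 88.5 CPM against 30.1, 94.2, 71.7 and 48.9 CPM and rose 2.24-fold (log2 1.16, SE 0.33, adjusted p = 0.0295). Radiated replicate 4 lay just below control replicate 2 in that week, and the call was lost without radiated replicate 1, 2 or 3 or control replicate 3 or 4 (adjusted p = 0.0555 to 0.0821) and in the fit of all 35 libraries (0.0939). In week 2 Ccr2 was at 184, 30.3, 41.6 and 72.7 CPM against 46.7, 8.52, 8.78 and 15.9 CPM. Mouse 1 was again the highest in both skins, but the difference within each mouse was nearly the same, 1.82 to 2.23 on the log2 scale. The test without the block gave an adjusted p of 0.229 (log2 2.04, SE 0.68) and that with the block 0.00441 (log2 2.06), and the fit of all 35 libraries gave 0.0357. In week 1 the difference was 0.75 (SE 0.48, adjusted p = 0.478), higher in 4 of 4 mice.

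Gpnmb rose in week 4 against control skin, and sham skin held as much of it. It was at 119, 64.4, 119 and 128 CPM in radiated and 33.2, 30.3, 37.5 and 42.3 CPM in control skin of week 4, without overlap, and rose 3.02-fold (log2 1.59, SE 0.21, adjusted p = 2e-04). Sham skin held 39.3, 81.8 and 189.7 CPM, so that sham replicate 3 was the highest of all 35 libraries, and radiated skin of week 4 differed from sham by a log2 of 0.11 (SE 0.46, adjusted p = 0.888). In week 3 Gpnmb was at 64.0, 22.4, 88.7 and 31.0 CPM in radiated and 34.2, 14.8, 31.7 and 16.8 CPM in control skin, with overlap (log2 1.11, SE 0.45, adjusted p = 0.0933). It passed the threshold there with the block (adjusted p = 0.0162), being higher in 4 of 4 mice by 0.59 to 1.48 on the log2 scale. In week 2 the difference was 0.50 (SE 0.23, adjusted p = 0.373) and in week 1 -0.46 (SE 0.39, adjusted p = 0.59). Control replicate 1 of week 1, at 97.9 CPM, stood far above the other controls of that week.

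Melanocyte and hair follicle markers moved with Gpnmb in part. The 7 melanocyte markers summed to 55.4, 32.5 and 210.2 CPM in sham replicates 1 to 3, and the 6 anagen hair follicle markers to 2079, 27450 and 33030 CPM, so that the sham library with the most Gpnmb had the most of both. Control replicate 1 of week 1 had sums of 81.8 and 6599 CPM, the highest of its group. In week 4 the melanocyte sum was 28.9 to 52.8 CPM in radiated and 15.4 to 17.9 CPM in control skin. Of the 6 tested melanocyte markers 4 were higher in radiated skin, and 3 of 5 among those that met the filter in both groups. All 6 hair follicle markers were higher too (3 with the block, and 3 of 3 among those that met the filter in both groups), although their sums, 19.2 to 5728 CPM in radiated and 21.3 to 32.9 CPM in control skin, overlapped. Defining markers were not all present: Slc45a2 was at 0 in 8 and Mlana in 3 of the 35 libraries. Across the 35 libraries, which share their tissue and depth scaling, log2 Gpnmb and the log2 melanocyte sum had a Pearson correlation of 0.49, and log2 Gpnmb and the log2 pan-macrophage sum 0.36; within the 16 radiated libraries the values were 0.24 and 0.69. Within radiated skin other lists had higher values. The correlation of Gpnmb with the sum of 18 lipid-associated genes was 0.69 over all libraries and 0.94 within radiated skin, and that with 5 mast cell markers 0.75 and 0.88. For 5 blood endothelium markers the values were 0.35 and 0.86, and for 5 fibroblast markers 0.47 and 0.76. Within the 16 control libraries the correlation of Gpnmb was 0.07 with blood endothelium and 0.13 with fibroblast markers. In these control libraries it was 0.65 with mast cell markers, 0.59 with the lipid-associated genes and 0.55 with lymphatic endothelium markers. With the melanocyte sum it was 0.32 there, and with the pan-macrophage sum 0.0008. The part of these cells in the Gpnmb result was not tested.

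**Figure D3:**
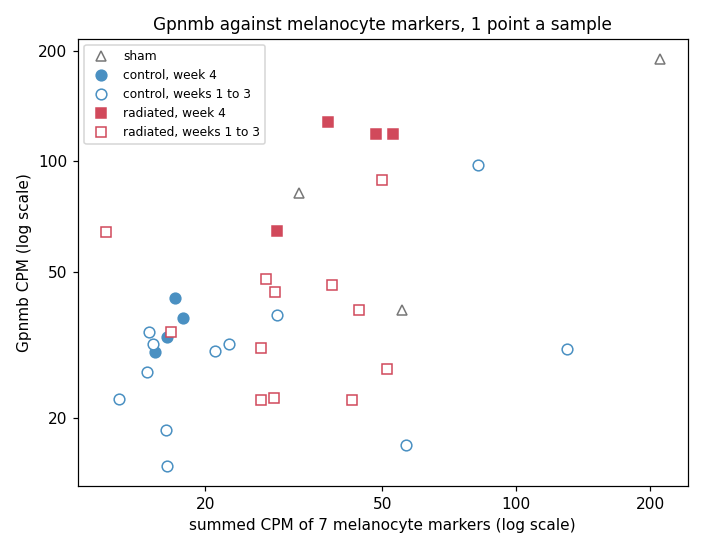
Gpnmb CPM (y axis, log scale) against the summed CPM of 7 melanocyte markers (x axis, log scale), 1 point a library; triangles are sham, circles control and squares radiated skin, filled in week 4. Radiated skin of week 4 lies above control skin of week 4 on both axes, and sham replicate 3 is highest on both.

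Counted over the set, 0 of the 9 members passed in week 1, where 0% of 17578 genes did, and 0 of 8 tested in week 2, where 0.00577% of 17345 did. The corresponding counts at an unadjusted p under 0.05 were 2477 and 2388 genes. In week 3 the test called 5 of 9 members, all higher (Mrc1, Cd163, Trem2, Ccr2 and Cd68), with 27.2% of 17653 genes called. In week 4 it called 9 of 9, all higher, with 48.4% of 17850 genes called and 24.2% called higher. Without Vsig4, which passed the filter of week 4 through its radiated libraries alone, these were 8 of 8. The block called 5 members in week 2 (Mrc1, Cd163, Ccr2, Adgre1 and Cd68), 5 in week 3 (Trem2, Gpnmb, Ccr2, Adgre1 and Cd68) and all 9 in week 4, where 3.7%, 21.1% and 42.7% of all genes were called with the block. The median log2 fold change of the members tested was 0.31, 1.72, 1.26 and 2.03 in weeks 1 to 4, against 0.05, -0.00, 0.08 and 0.02 over all genes tested; without Vsig4 the last 2 medians of the members were 1.21 and 1.98. Week 3 rested on few libraries. There, 1 member was called without control replicate 4, 2 were called without radiated replicate 1 or 3, and 3 were called without control replicate 1 or 3. The block counts rested on single pairs too: without the pair numbered 3 of each week, which are different mice, 0 members were called in week 2 and 1 in week 3.

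**Figure D4:**
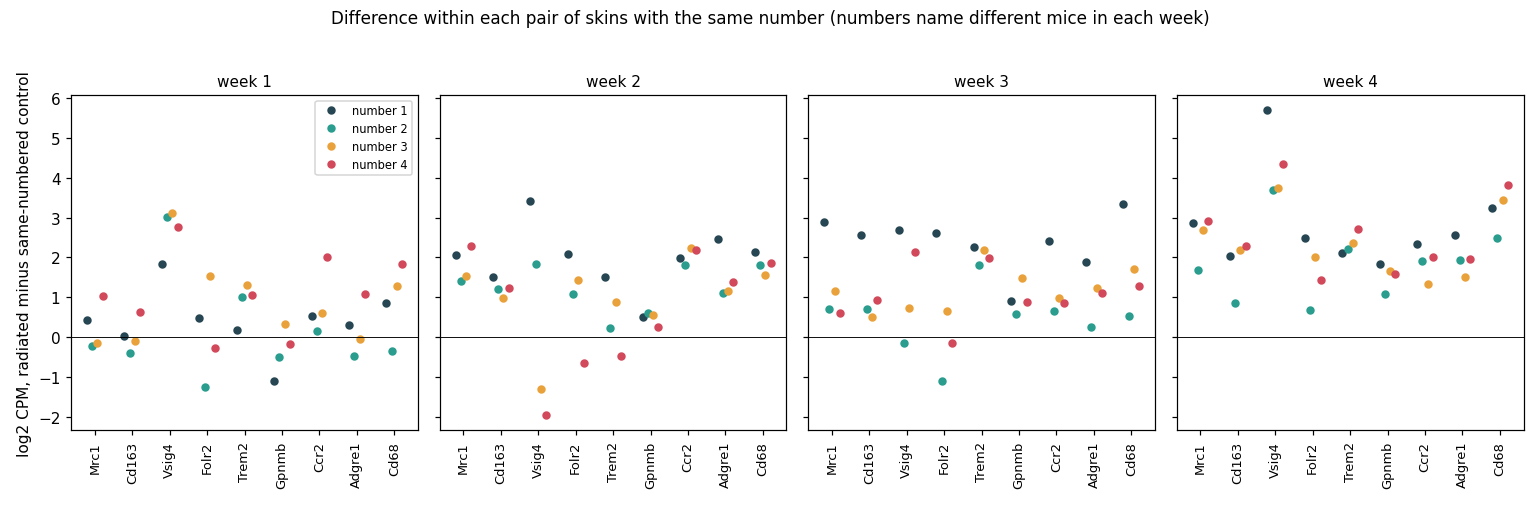
Log2 CPM of radiated skin minus that of the same-numbered control skin (y axis) for the 9 members (x axis) in weeks 1 to 4; each point is 1 pair of skins and colours give the number, which names another mouse in each week. In week 2 all 4 pairs are above 0 for Mrc1, Cd163, Gpnmb, Ccr2, Adgre1 and Cd68, and in week 4 for all 9. With the block, 2.85% of all genes were called higher in week 2 and 21.4% in week 4.

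Whether the difference itself changed over the 4 weeks was tested in 1 fit of the 32 radiated and control libraries. It changed for Mrc1 (adjusted p = 0.0159), Trem2 (adjusted p = 0.015) and Gpnmb (adjusted p = 0.0376), 3 of 9 members, where 15.6% of 19338 genes passed. With the block 6 members passed, the other 3 being Cd163 (adjusted p = 0.0252), Adgre1 (0.0217) and Cd68 (0.0263). The 15.6% belongs to the fit without the block, and no share of all genes is given here for the blocked fit. Of the steps between neighbouring weeks no member passed: 0% of genes passed for week 1 to 2, 6.9% for week 2 to 3 and 0.419% for week 3 to 4. At an unadjusted p under 0.05, 1296, 4387 and 2684 genes did. The nearest member was Trem2 from week 2 to 3, whose difference grew by 1.51 (SE 0.48, adjusted p = 0.052) on the log2 scale; with the block this was 1.57 (adjusted p = 0.0264). The interaction rested on single numbers too: leaving out the same-numbered replicates of all weeks gave 0 members called without number 2, 3 or 4 and 5 without number 1.

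Against sham skin, which was shared by all comparisons that follow, radiated skin of week 4 had 8 of 9 members higher, where 26.7% of genes were called. In week 3 there were also 8 of 9, where 18.2% were called. Both counts left out Gpnmb alone, and without Vsig4, which had few counts in sham skin, each was 7 of 8. Sham skin held 169.9, 101 and 56.1 CPM of Mrc1, 15.2, 15.4 and 10.4 CPM of Cd68 and 1.68, 1.95 and 1.80 CPM of Trem2, in replicates 1 to 3, below every radiated library of weeks 3 and 4. Cd68 rose 9.61-fold in week 3 (log2 3.26, SE 0.42, adjusted p = 0.0049) and 7.75-fold in week 4 (log2 2.95, SE 0.24, adjusted p = 0.000172) over sham. Mrc1 rose 5.76-fold (log2 2.53, SE 0.50, adjusted p = 0.0136) and 4.91-fold (log2 2.30, SE 0.36, adjusted p = 0.00257). Vsig4, with 1, 2 and 4 counts in sham skin, gave a ratio of summed counts of 29.1 (95% exact interval 14.0 to 73.1) in week 4. In weeks 1 and 2 none of 9 and none of 8 members tested passed, where 1.75% and 5.06% of genes did; these counts were 3 without radiated replicate 2 of week 1 and 2 without radiated replicate 1 of week 2. DESeq2 called 5 and 5, with 1238 and 2482 genes called in all against 319 and 912, and the fit of all 35 libraries 1 and 5, with 1224 and 3257 genes. Without sham replicate 2 the count of week 3 was 5, with Mrc1 (adjusted p = 0.0558), Vsig4 (0.0606) and Folr2 (0.106) lost, and in the fit of all 35 libraries Folr2 lost its call in week 4 (0.112).

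Control skin of the radiated mice also differed from sham skin in places. In week 1 Folr2 was higher (log2 1.43, SE 0.32, adjusted p = 0.0441), 1 of 8 members tested, where 4.92% of genes were called. In week 3 Cd163 was higher (log2 1.28, SE 0.32, adjusted p = 0.0372) and Gpnmb lower (log2 -2.10, SE 0.50, adjusted p = 0.0334), 2 of 8, where 11.4% were called. In week 2 and week 4 none of 8 passed, where 2.44% and 3.65% of genes did. These counts rested on single libraries: in week 1 it was 0 without control replicate 2, 3 or 4 or sham replicate 2 or 3 and 2 without control replicate 1, in week 2 it was 2 without control replicate 1 and 1 without sham replicate 1, in week 4 it was 1 without sham replicate 1, and in week 3 it was 0 without control replicate 2 or 3 or sham replicate 2 or 3 and 1 without control replicate 4. DESeq2 called 2 in week 1 and 7 in week 3, with 2974 and 3594 genes called in all against 881 and 2036. Cd68 averaged 40.5 ± 22.3 CPM (SD, n = 4) in controls of week 3 and 13.6 ± 2.80 CPM (SD, n = 3) in sham skin, a difference that missed the threshold (adjusted p = 0.0549).

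Ordered by mean level over the 9 groups, radiated skin of weeks 3 and 4 held the first 2 places for Mrc1, Cd163, Vsig4, Trem2, Ccr2, Adgre1 and Cd68. For Folr2 the first place was radiated skin of week 3 at 11.6 CPM, and for Gpnmb radiated skin of week 4 at 107.5 CPM followed by sham skin at 103.6 CPM. Neighbours in the order mostly did not differ beyond their spread: for Cd163, Ccr2 and Adgre1 none of the 8 gaps between neighbours exceeded the larger of their SDs, and for Mrc1 and Cd68 2 of 8 did. The only neighbours whose ranges did not overlap were radiated skin of weeks 4 and 1 for Trem2. Per kilobase of the principal transcript, Cd163 stood first among the members in radiated skin of week 4, at 104 ± 42.9 CPM per kb (SD, n = 4), followed by Mrc1 at 96.7 ± 17.1 and Cd68 at 83.4 ± 17.7. Trem2, at 5.48 ± 1.04, and Vsig4, at 2.14 ± 0.88, stood last. In control skin of week 4 Cd163 was again first, at 27.8 ± 6.34 CPM per kb, and Mrc1 second, at 16.7 ± 4.04, while Cd68 stood at 8.69 ± 1.72.

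The balance of the classes was described by the mean log2 CPM of the 4 resident-type genes minus that of the 3 recruited or lipid-associated genes, with no test. It was -0.95 ± 0.43 (SD, n = 3) in sham skin, -0.41 ± 0.41 in control and 0.26 ± 0.22 in radiated skin of week 4 (SD over 4 libraries), and the highest control library, at 0.0128, nearly reached the lowest radiated one, at 0.0136. In week 3 it was 0.51 ± 0.46 in control and 0.19 ± 0.40 in radiated skin, which overlapped. Nearly all of the gap of week 4 came from Vsig4, which has few counts: without it the balance was 1.53 ± 0.44 in control and 1.61 ± 0.24 in radiated skin of week 4, with overlap. Between single genes, log2 Mrc1 minus log2 Ccr2 was 1.60 ± 0.28 in control and 2.25 ± 0.45 in radiated skin of week 4, and log2 Mrc1 minus log2 Trem2 was 6.23 ± 0.61 and 6.43 ± 0.24, with overlap in each. Against the shared gene Cd68, Mrc1 stood 3.06 ± 0.33 higher in control and 2.35 ± 0.11 higher in radiated skin of week 4, without overlap, and Trem2 3.18 ± 0.38 and 4.08 ± 0.25 lower, again without overlap. In week 3 both overlapped. Log2 Mrc1 minus log2 Cd68 was then 2.64 ± 0.50 in control and 2.27 ± 0.52 in radiated skin. For Trem2 the values of week 3 were -4.11 ± 0.53 and -3.76 ± 0.50, so that radiated skin was the higher.

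The genes most like each member were taken from 16405 genes by Pearson correlation of log2 CPM over the 35 libraries, as a description. For Cd68 they were Clec4a1 (0.98), Fcgr3 (0.97) and C3ar1 (0.97), and for Mrc1 Fcgr3 (0.97), C3ar1 (0.97) and Nckap1l (0.97). Adgre1 was most like Mpeg1 (0.96), Csf1r (0.96) and Hexa (0.96), Ccr2 most like Gm1966 (0.96), Sash3 (0.95) and Nfam1 (0.95), and Trem2 most like Slc12a7 (0.94), Tcirg1 (0.93) and Fes (0.92). Cd163 was most like Iqgap2 (0.93), Fcgr3 (0.93) and Csf1r (0.92), and Folr2 most like Cd209f (0.92), Lmo2 (0.91) and Pltp (0.89). Vsig4, with Man2b1 (0.85), Dclre1c (0.84) and Heatr5a (0.84), had weaker neighbours at its low counts. Gpnmb reached 0.79 with Csgalnact1, 0.78 with Pag1 and 0.77 with Arid3a. Among the members the highest values were 0.95 for Mrc1 with Cd68 and 0.94 for Adgre1 with Cd68 and with Ccr2, while Gpnmb was at 0.22 with Folr2 and at most 0.43, with Vsig4; within the 16 radiated libraries these were 0.51 and 0.70. The libraries share their treatment groups, so these values do not separate a shared group effect from a shared pattern within groups.

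Wider lists of macrophage genes were compared between radiated and control skin, and genes named with a difference passed the test unless it is said that they did not. The genes named as the largest of a list are the largest among those that averaged at least 5 CPM. The share of all genes called, to be read beside each count, was 48.4% in week 4 and 27.2% in week 3, with 24.2% and 13.6% called higher. Some list genes met the filter on low counts in 1 of the 2 groups only, so that their call is fixed in part by the filter. Where the number called differs without them, that count is given or such genes are named. Of 12 pan-macrophage genes tested 12 were higher in week 4 (8 in week 3, and 4 there without control replicate 4), with a median log2 fold change of 2.88 against 0.02 for all genes. Cd14, the co-receptor for lipopolysaccharide, differed by 3.47 (SE 0.18), Aif1, which encodes IBA1, by 3.29 (SE 0.31) and Itgam, which encodes CD11b, by 3.17 (SE 0.20). In week 3 Fcgr1, an activating Fc receptor, and Spi1, which encodes PU.1, were among the 3 largest, at 2.11 (SE 0.56) and 2.06 (SE 0.52). Both calls were lost without control replicate 4 (adjusted p = 0.0615 and 0.0525), and that of Fcgr1 without control replicate 3 (0.0504). Of 11 monocyte recruitment and growth genes 9 were higher and 1 lower in week 4, against 4 and 1 in week 3, with medians of 1.45 and 0.91. Without genes that met the filter in 1 group only, 8 of 9 tested were higher in week 4. Only 2 were higher in week 3 with the block, or without radiated replicate 2 or 3 or control replicate 2 or 3. The largest of week 4 at 5 CPM or more were the chemokine receptor Ccr1 (4.46, SE 0.36), the proteoglycan Vcan (3.79, SE 0.24) and Ccl2, the ligand of CCR2 (2.57, SE 0.32). In week 3 Ly6c2, a marker of classical monocytes, differed by 1.98 (SE 0.42). Il34, which encodes a ligand of the CSF1 receptor made by keratinocytes, fell in week 4, to 7.68 CPM against 36.6 CPM in control skin (log2 -2.24, SE 0.14).

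Most of the other resident-type genes rose in week 4. Of 16 such genes 10 were higher and 1 lower in week 4, with a median of 0.80, and in week 3 2 were higher and 2 lower, with a median of 0.11 against 0.08 for all genes, a count near the share of all genes called in that week. In week 4 the fit of all 35 libraries called 6 higher, and 2 were lower with DESeq2 or without radiated replicate 1 or control replicate 4 and 3 without control replicate 1. In week 3 the block called 1 higher, and 1 was lower with total-count scaling or without radiated replicate 1 or 3 or control replicate 2 or 3. Stab1, a scavenger receptor, differed by 2.71 (SE 0.11) and the chemokine Pf4 by 2.76 (SE 0.40) in week 4. Mgl2, a lectin of dermal macrophages and dendritic cells, fell by 2.15 (SE 0.45) on the log2 scale in week 4, and Timd4, a receptor for phosphatidylserine, fell by 1.96 (SE 0.49) in week 3. Lyve1, known from perivascular macrophages and lymphatic vessels, was at 49.99 ± 9.10 CPM in radiated and 38.1 ± 6.02 CPM in control skin of week 4 and missed the threshold (adjusted p = 0.06).

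Most genes of the lipid-associated and TREM2 lists were higher by week 4. Of 18 lipid-associated genes 12 were higher and 1 lower in week 4, and 9 and 3 in week 3, with medians of 1.197 and 1.034; without radiated or control replicate 3 of week 4, 2 were lower, and 10 of 16 tested were higher in week 4 among genes that met the filter in both groups. Spp1, which encodes osteopontin, differed by 6.60 (SE 0.48), from 0.94 to 89.8 CPM (it met the filter in radiated skin only), the protease gene Ctsk by 3.80 (SE 0.32) and the fatty acid-binding protein gene Fabp5 by 1.96 (SE 0.26) in week 4. Fibroblasts and keratinocytes also make some of these, and Apoe (-0.05, SE 0.12), Lgals3 (-0.22, SE 0.10), Lpl (-0.27, SE 0.24) and Cd36 (-0.38, SE 0.33) did not pass in week 4. In week 3 Lpl (-0.99, SE 0.14) and Cd36 (-0.86, SE 0.27) were lower. Of the TREM2 signalling genes 5 of 5 tested were higher in week 4 and 5 of 6 in week 3, the last including Hcst, which met the filter in radiated skin only. The adaptor gene Tyrobp differed by 2.90 (SE 0.18), the kinase gene Syk by 2.30 (SE 0.12) and Plcg2 by 0.89 (SE 0.11) in week 4, and in week 3 Vav3 by 1.04 (SE 0.12).

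Among genes of macrophage activation, cytokines and amino acid use, more rose than fell. Of 13 such genes 9 were higher and 2 lower in week 4, and 7 and 2 in week 3, with medians of 2.46 and 1.46. Among genes that met the filter in both groups 5 of 8 were higher and 1 lower in week 4, and 4 of 10 and 2 in week 3. The cytokine genes Il6 (6.37, SE 0.56) and Il1b (4.69, SE 0.41) and the receptor gene Il4ra (3.05, SE 0.14) were the largest of week 4 at 5 CPM or more. Il6 met the filter in radiated skin only, with 3 to 9 counts in control libraries of week 4. Its summed counts, 1655 against 19, stood per total count in a ratio of 88.9 (95% exact interval 56.8 to 148, counting error only). Chil3, a chitinase-like protein of activated macrophages, was at 4.62 (SE 1.23) in week 3, with 0.55 CPM in control skin. It met the filter in radiated skin only, and its call was lost without radiated replicate 1 or control replicate 2 or 4 (adjusted p = 0.0533 to 0.0627). Retnla, a marker of alternative activation, fell in week 4 to 1.08 CPM against 8.96 CPM in control skin (log2 -3.02, SE 0.73), having met the filter in control skin only. Of the folate and scavenger receptor genes 4 of 7 tested were higher in week 4. In week 3 it was 2 of 8, a share near that of all genes called, and 1 without control replicate 1 or 4. Among genes that met the filter in both groups 4 of 4 were higher in week 4 and 2 of 5 in week 3. Msr1, a scavenger receptor for modified lipoproteins, differed by 4.01 (SE 0.31), Mrc2, a paralogue of Mrc1 that binds collagen, by 2.20 (SE 0.17) and Colec12 by 1.36 (SE 0.16).

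Markers of several other cells moved beside the macrophage genes. The 8 neutrophil markers summed to 9.67 to 13.4 CPM in the means of sham and control skin, and to 375 ± 346 and 352 ± 111 CPM (SD, n = 4) in radiated skin of weeks 3 and 4, where 6 of 7 and 7 of 7 tested were higher. Only 2 of the 7, Csf3r and Cxcr2, met the filter in both groups, and both were higher in each week. Ly6g, the defining marker, was at 0 in 26 of the 35 libraries. The 5 mast cell markers were all higher in both weeks, with sums of 66.5 ± 25.9 and 123 ± 19.0 CPM in radiated against 24.2 ± 5.21 and 35.5 ± 2.77 CPM in control skin. Of 5 fibroblast markers 4 were higher in week 4, and the sum was 16550 ± 3009 CPM against 1841 ± 498 CPM. Col1a1 made up most of this gap, and the other 4 summed to 1819 ± 314 CPM against 977 ± 150.2 CPM. Of 5 blood endothelium markers 4 were higher in week 4, with a sum of 396.5 ± 50.01 CPM against 193.8 ± 44.9 CPM, and over the 16 radiated libraries log2 Cd68 had a correlation of 0.83 with their log2 sum (0.58 over all 35 libraries and -0.32 within control skin). Of 5 keratinocyte markers 3 were lower and 1 higher in week 4, with a sum of 17310 ± 2677 CPM against 26350 ± 1353 CPM, and log2 Cd163 had a correlation of -0.86 with it over the same 16 libraries (-0.65 over all and -0.71 within control skin). Of 7 dendritic and Langerhans cell markers tested in week 4, 3 were higher (Flt3, Clec9a and, having met the filter in radiated skin only, Ccr7). Cd207, the Langerhans cell marker, met the filter in control skin only and fell by 2.97 (SE 0.27) on the log2 scale. Of 5 T cell markers Trac was higher (1.36, SE 0.50; adjusted p = 0.0711 with the block, at under 1 CPM), Cd3e fell by 1.23 (SE 0.17) and the other 3 did not pass. Muscle markers fell, 5 of 6 in week 3 with and without the block, and in week 4 4 of 6, of which 1 passed with the block. Neutrophils and monocytes also carry some genes of the lists, among them Il1b and Itgam, and the part of all these cells in the member results and list counts was not tested.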

How the data were processed

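Estimated counts per gene were deposited by the authors for 35 libraries. Per the labels' protocols, total RNA was extracted with a column kit and the reads were analysed with Kallisto and DESeq2. The submitters' processing notes name Trim Galore 0.6.7, kallisto 0.46.2 and the genome build mm10; the annotation and the strand setting are not given in the sources used here. Between 29.5% and 32.5% of the values of a library were not whole. The counts were rounded, filtered with filterByExpr, scaled by TMM and tested with edgeR 4.0.16 (quasi-likelihood F test) in R 4.3.3. Each comparison was fitted on its 2 groups, p-values were adjusted by Benjamini-Hochberg over all genes tested, and 0.05 was the threshold. In all, 16 tests were made: 4 weeks of radiated against control, radiated against sham and control against sham skin, the change of the difference over weeks, and its 3 steps. Log2 CPM used a prior count of 2.

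The members and lists were chosen with earlier results of these data known; 1 further member and some list genes are not reported here and enter no count or mean of members or lists. From each list the 3 genes with the largest change that passed and averaged at least 5 CPM are named, for week 4 and, where different, week 3; Il34, Lyve1, Apoe, Lgals3, Lpl, Cd36 and Retnla were named after their values were seen. The genes most like a member averaged at least 1 CPM. Lengths per gene were those of the principal transcript in GENCODE M21.

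No 2 libraries held identical values, and all 51 pairs of replicates differed by far more than sampling noise (lowest reduced chi-square 21.2). The pairing of the skins comes from the library codes and the 19 mice of the series' design text. The deviations of same-numbered skins had a mean correlation of 0.08, 0.24, 0.08 and -0.02 in weeks 1 to 4, against -0.03, -0.08, -0.02 and 0.01 for skins with other numbers. Scripts were tested on simulated data. Alternatives were DESeq2 1.42.0, total-count scaling, no filter, 1 fit of all libraries, the replicate block, another prior count and leaving out each replicate. Intervals cover counting error only.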

Additional observations from a re-analysis of the deposited data

Results flagged for a closer look

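In groups of 4, a library was looked for that stood apart by Dixon's 95% criterion on its gap to the nearest other. This held in 11 of the 72 combinations of a member and a group, and chance gives about 1 in 20. Mouse 1 of week 2 accounted for 8 of them. Its radiated skin stood apart for Cd163 (683.6 CPM), Vsig4 (1.901 CPM), Folr2 (31.65 CPM), Adgre1 (97.04 CPM) and Cd68 (127.2 CPM), each time as the highest. Its control skin was the highest for Cd163 (239.1 CPM), Adgre1 (17.54 CPM) and Cd68 (28.89 CPM). In week 1 the control skin of mouse 1 stood apart for Vsig4 (0.2326 CPM, the only control of that week above 0) and for Gpnmb (97.93 CPM). In week 4 the radiated skin of mouse 2 was low for Gpnmb (64.41 CPM).

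By the test of the interaction itself, the gap between the skins changed with the week for Mrc1 (adjusted p = 0.0159), Trem2 (adjusted p = 0.015) and Gpnmb (adjusted p = 0.0376). The difference of Mrc1 was 0.30 in week 1 and 2.54 in week 4 on the log2 scale, that of Trem2 0.93 and 2.43, and that of Gpnmb -0.46 and 1.59. Without control replicate 1 of week 1 the Gpnmb difference of that week was 0.11. Its interaction missed the threshold without number 1 of all weeks (adjusted p = 0.246). Each of these calls was lost without number 2, 3 or 4 (adjusted p = 0.0502 to 0.18). From week 3 to week 4 mean Mrc1 went from 609 to 520 CPM in radiated and from 230.5 to 89.9 CPM in control skin.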

How the results depend on the processing

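The 9 calls of week 4 against control skin held in 14 of 14 alternatives. In week 3 the call held in 14 of 14 for Trem2, 12 for Mrc1, 10 for Cd68, 8 for Ccr2 and 6 for Cd163. With the replicate block, 5 members were called in week 2, 5 in week 3, 9 in week 4 and 6 for the change over weeks, 1 for the step from week 2 to 3 (1 with DESeq2), and 0 for control against sham skin of weeks 1 and 3, where sham and control animals share only a number and the block pairs unrelated mice. DESeq2 called 1 in week 2 against control, 5 and 5 in weeks 1 and 2 against sham, and 2, 1, 7 and 1 in weeks 1 to 4 for control against sham skin. One fit of all libraries called 4 in week 2 against control, 1 and 5 in weeks 1 and 2 against sham, and 0, 1 and 1 in weeks 1, 2 and 3 for control against sham. Total-count scaling called 8 in week 3 against control, and 0 and 1 in weeks 1 and 2 for control against sham; no filter called 1 in week 1 against sham, and 2 and 1 in weeks 1 and 2 for control against sham. Calls over all genes moved too: in week 2 against control from 1 to 734 with DESeq2, 544 in the fit of all libraries and 641 with the block, in weeks 2 and 4 for control against sham from 435 and 655 to 1956 and 1855 with DESeq2, and in week 3 against control from 4805 to 5324 with total-count scaling. Leaving out 1 replicate gave, against control, 0 to 1 in week 2 and 1 to 6 in week 3. Against sham it gave 0 to 3, 0 to 2 and 5 to 8 in weeks 1, 2 and 3, and for control against sham 0 to 2, 0 to 2, 0 to 3 and 0 to 1 in weeks 1 to 4. The block called 0 to 6 in week 2 and 1 to 4 in week 3 without 1 pair, and the change over weeks had 0 to 5. Counts with fewer libraries rest on fewer samples; the cause of the other changes was not tested.

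Over 14 alternatives, among them leaving out single replicates, the log2 difference from control skin in week 1 spanned -0.293 to 0.3576 for Cd163, -0.629 to 0.1107 for Gpnmb and -0.2284 to 0.6132 for Adgre1. In week 3 it spanned -0.016 to 0.7064 for Folr2. The balance of the classes turned negative with a prior count of 0.5 in control skin of weeks 1 (-0.272) and 2 (-0.1897) and in radiated skin of week 2 (-0.1378). Total-count scaling moved the median of all genes to 0.182 in week 1 and 0.317 in week 3 against control skin. Of 392 counts of list genes compared under alternatives, 22 moved by over 1.5 times. With the block the higher genes of week 3 were 2 for the monocyte list and 1 for the resident-type list, in place of 4 and 2, and the muscle markers lower in week 4 were 1 in place of 4; the pan-macrophage count of week 3 was 4 in place of 8 without control replicate 4. At the counts of Vsig4 and Trem2, few reads limit the precision.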
